A study of Mus musculus with 19 samples.

Results

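Peaks of 5-hydroxymethylcytosine (5-hmC) were followed over 10 mouse genes of mitochondrial fusion, fission and quality control, out of 21000 protein-coding genes. Mitochondria of cardiomyocytes (CMCs) are shaped by fusion, fission and disposal of damaged organelles. Mfn1 and Mfn2 are GTPases that join outer membranes, and Opa1 is the GTPase that joins inner membranes. Dnm1l (Drp1) is the dynamin-like GTPase that divides the organelle, and it is brought to the surface by adaptors such as Fis1 and Mff. Pink1 is a kinase that marks damaged mitochondria for mitophagy, Mul1 is a ubiquitin and SUMO ligase of the outer membrane that acts on mitofusins and on Drp1, and Oma1 and Yme1l1 are proteases of the inner membrane that cut Opa1. 5-hmC is made by TET enzymes, which oxidise 5-methylcytosine, mainly where C is followed by G (CpG). In many differentiated tissues it is known to lie over the bodies of transcribed genes and over enhancers.

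Mul1 was selected on its measured rise in peak coverage from neonatal to adult CMCs, so its values for that step are a description without a test. The other 9 genes were chosen by their place in the same process, with earlier results of these data known. CMCs of C57BL/6J mice were taken at 4 points. These were E14.5 (embryonic ventricles), neonatal (day 1 or 2 after birth), adult (left ventricle, 2 months) and TAC, where the aortic arch of adults had been constricted for 1 week so that pressure overload drove hypertrophy. Each point had 2 replicates, said to be biological, and the labels name no transgene or induced allele in any group and no sham operation in the adult group. The CMCs were enriched by enzymatic digestion, with pre-plating for the younger hearts, and the study checked them by staining for sarcomeric actinin. Whether a replicate was 1 animal or a pool is not given in the sources used here. Sheared DNA was pulled down with an antibody to 5-hmC and sequenced, and each of the 8 lists used here holds the places where one replicate exceeded its input DNA.

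The lists held 104215 to 153637 peaks, with a median width of 501 bp in each, and covered 2.46 to 4.48% of the known genome. They carry no read counts, so the depth is unknown and a gene without a peak cannot be called free of 5-hmC. The value used throughout is the percentage of a gene's window under peaks, the window being the RefSeq transcribed span plus 5 kb upstream in mm10. Across all genes the median was 2.51 to 4.24% per list, and 28.0 to 34.7% of genes had none. TAC replicate 2 stood apart. For its peak centres with a centre of another list within 2 kb, the most frequent distance to the nearest one was 500 to 600 bp. For the other 7 lists this was 0 to 100 bp. With the other lists taken one at a time, a mean of 25.1% of its peaks overlapped a peak of the list compared, against 36.1 to 38.5%. Calls and counts for TAC are also given without TAC replicate 2. Among markers of the cell types a cardiac isolate can hold, the 8 CMC genes (Myh6, Tnnt2, Actn2, Ryr2, Ttn, Tnni3, Pln and Myl2) had medians of 18.5, 34.8, 17.5 and 11.7% from E14.5 to TAC in the order above, and 6.93 to 26.5% of their summed windows was covered. The 7 fibroblast genes had 2.82, 2.61, 1.22 and 1.42% (1.57 to 3.68% summed), and the 6 endothelial genes 8.96, 6.53, 5.67 and 3.45% (3.32 to 9.78% summed). Pln had no peak in any adult or TAC list, Postn none in adult and Tcf21 in 1 of 8 lists. Coverage is not expression, so these values describe the lists and do not measure purity. In such bulk samples a change in the mix of cells and a change within CMCs cannot be told apart.

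The 10 windows differed in how much of them was ever under a peak. Averaged over the 8 lists, coverage was 20.6% for Mul1, 16.6% for Pink1, 13.6% for Mfn2, 7.998% for Mfn1, 5.70% for Fis1, 3.56% for Mff, 2.97% for Oma1, 2.10% for Dnm1l, 1.69% for Opa1 and 0.393% for Yme1l1. Neighbours in this order had overlapping ranges over the lists. The windows of Mfn1, Mfn2, Mff, Pink1, Oma1 and Yme1l1 also hold 69 to 4520 bp of another annotated gene. Pink1 and Mfn2 were above the median of all genes in 8 of 8 lists and Mfn1 in 7, whereas Yme1l1 was below it in all 8. Windows with more CpG had more coverage among the 10 genes (Pearson r = 0.850, Spearman rho = 0.842, n = 10 genes, one mean over the same 8 lists each). Over all 21000 genes the same values were 0.468 and 0.627. Mul1, selected on its adult coverage, had both the most CpG (2.08 per 100 bp of window) and the most coverage of the 10 genes. No correlation without Mul1 was computed, so whether the 10 genes differ from all genes here cannot be decided. Of 225 peaks over the 10 windows, 172 had their centre in an intron, 17 in a coding exon, 16 in an untranslated exon, 16 upstream of the gene and 4 beyond the window.

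**Figure D1:**
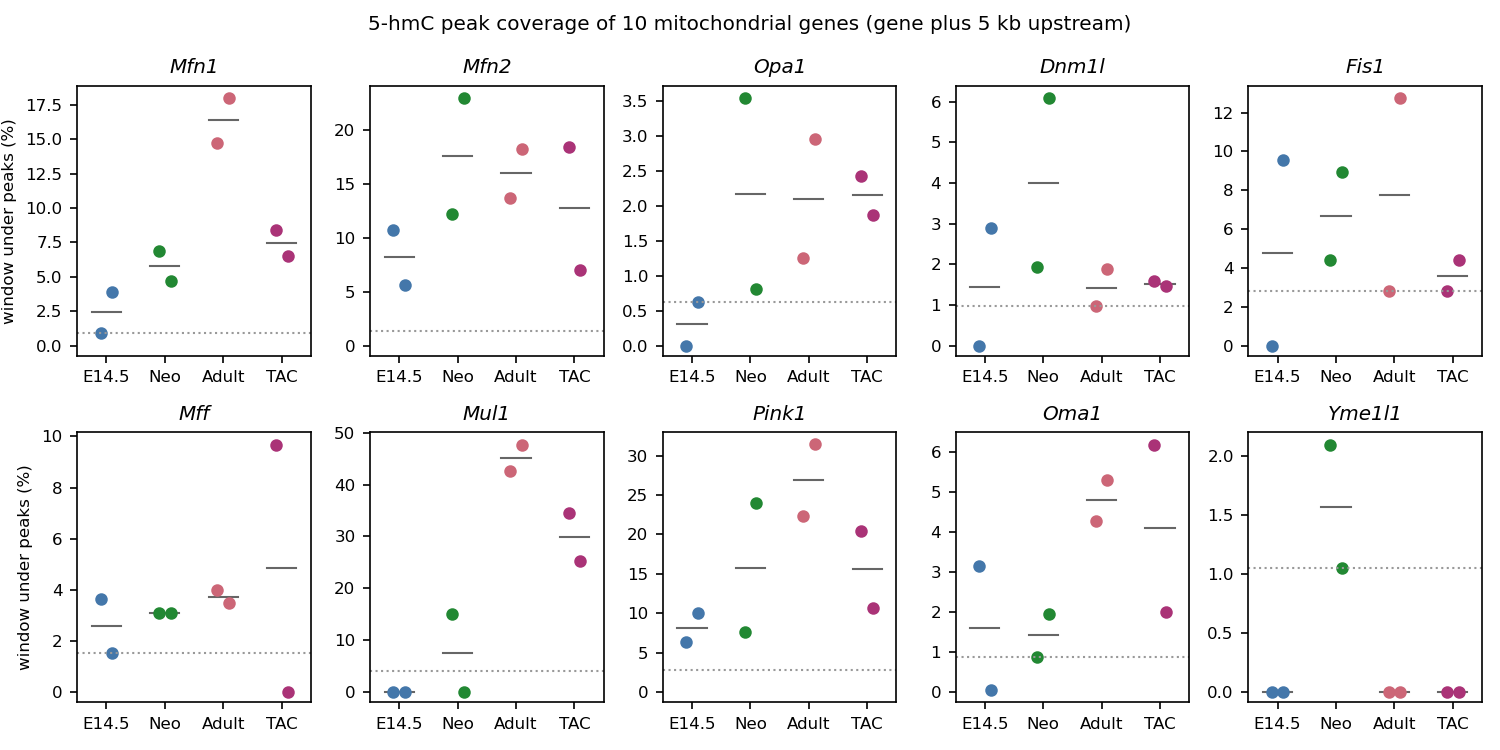
Percentage of each gene's window (gene plus 5 kb upstream) under 5-hmC peaks in the 8 lists, with E14.5, neonatal (Neo), adult and TAC on the horizontal axis. Points are single replicates, bars their mean, and the dotted line the share that a single peak of 501 bp would cover. Mul1 lies at 0 in both E14.5 lists and at 42.6 and 47.6% in adults, and the vertical scales differ between genes.

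Fusion genes. Mfn1 (chr3:32529482-32579225, plus strand) had more coverage at each step up to the adult and less after TAC. Its window of 54744 bp was covered to 0.915 and 3.91% (E14.5), 6.87 and 4.68% (neonatal), 14.7 and 18.0% (adult) and 8.38 and 6.50% (TAC). Each point lay wholly above or below the one before it, although neonatal no longer separated from E14.5 when coverage was divided by the share of the genome each list covers. The means were 2.41 ± 2.12, 5.78 ± 1.54, 16.4 ± 2.32 and 7.44 ± 1.33% (SD, n = 2). A peak of 501 bp is 0.915% of this window, and E14.5 replicate 1 held a single one. In an exact permutation test of the 4 points, over the 105 ways to divide 8 lists into 4 pairs, Mfn1 had p = 0.0190. After Benjamini-Hochberg adjustment over all genes p was 0.698 in that exact test, and no gene passed.

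The base pairs of Mfn1 most often under a peak ran from 4790 to 5261 bp after the start and lay mostly in intron 3. They were listed in 7 of 8 replicates, all but TAC replicate 2, and were the only stretch of the 10 genes common to the 6 lists before TAC. A second segment at 8517 to 8966 bp was in both neonatal lists, both adult lists and TAC replicate 1, and in neither E14.5 list. The replicates of a point shared 1 region at E14.5, 3 as neonates, 10 as adults and 4 after TAC. The central 300 bases of the first segment (chr3:32534357-32534656, plus strand, mm10) are shown because no other stretch of these genes was marked in so many lists. Capitals mark CpG here and below, the bases at which 5-hmC mostly lies.
Mfn1 intron 3, 7 lists: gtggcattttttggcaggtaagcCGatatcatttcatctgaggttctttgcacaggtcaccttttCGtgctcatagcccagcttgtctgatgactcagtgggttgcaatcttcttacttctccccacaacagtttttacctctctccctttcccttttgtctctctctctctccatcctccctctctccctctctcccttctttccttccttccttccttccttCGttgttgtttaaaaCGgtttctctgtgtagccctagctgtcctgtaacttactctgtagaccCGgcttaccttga

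It holds 5 CpG, and over the whole window CpG was denser under peaks (1.28 per 100 bp) than outside them (0.756). Mfn2 (chr4:147873586-147904909, minus strand) had 10.7 and 5.62% (E14.5), 12.2 and 22.9% (neonatal), 13.7 and 18.2% (adult) and 18.3 and 7.03% (TAC). Both neonatal lists were above both E14.5 lists, and neonatal, adult and TAC overlapped. The exact permutation test of the 4 points gave p = 0.476 for Mfn2 (adjusted over all genes, 0.974). The call was lost over the gene without its upstream 5 kb and when peaks that no other list overlapped were left out. The neonatal replicates shared peaks upstream and over the first introns, from -1469 to -908 and from 1191 to 2477 bp relative to the start. The upstream place was also marked in adult replicate 1 and TAC replicate 1. Both adult replicates shared 17259 to 18859 bp and both TAC replicates 17618 to 18542 bp, around exons 9 and 10 of 20. The part of this stretch seen in 5 lists, neonatal replicate 2 and the 4 adult and TAC lists, was 105 bp with 86 coding bases (chr4:147887187-147887291, minus strand).
Mfn2 exon 9, 5 lists: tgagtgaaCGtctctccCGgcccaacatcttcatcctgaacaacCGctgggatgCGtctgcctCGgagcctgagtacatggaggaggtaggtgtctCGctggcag

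It is the most CpG-dense of the Mfn2 stretches listed most often, with 5.71 per 100 bp. Opa1 (chr16:29579334-29654602, plus strand), the longest gene, was sparse. Its coverage was 0 and 0.624% (E14.5), 3.54 and 0.809% (neonatal), 1.25 and 2.96% (adult) and 2.43 and 1.87% (TAC), where 1 peak of 501 bp is 0.624%. Neonatal exceeded E14.5 in both replicates, but neonatal replicate 2 and E14.5 replicate 2 each held a single peak, at the same place and of different width. The exact permutation test gave p = 0.438 over the 4 points for Opa1 (adjusted over all genes, 0.938). That place, in intron 8, was listed in 5 of 8 lists and was the only region of Opa1 common to both adult replicates. Its central 300 bases (chr16:29607073-29607372, plus strand) hold 7 CpG.
Opa1 intron 8, 5 lists: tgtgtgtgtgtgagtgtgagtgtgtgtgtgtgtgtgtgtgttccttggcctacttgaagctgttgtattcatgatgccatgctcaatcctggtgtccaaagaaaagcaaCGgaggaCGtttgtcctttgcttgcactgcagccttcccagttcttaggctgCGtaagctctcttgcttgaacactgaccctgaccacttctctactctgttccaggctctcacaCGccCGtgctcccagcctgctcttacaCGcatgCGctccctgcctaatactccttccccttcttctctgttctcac

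**Figure D2:**
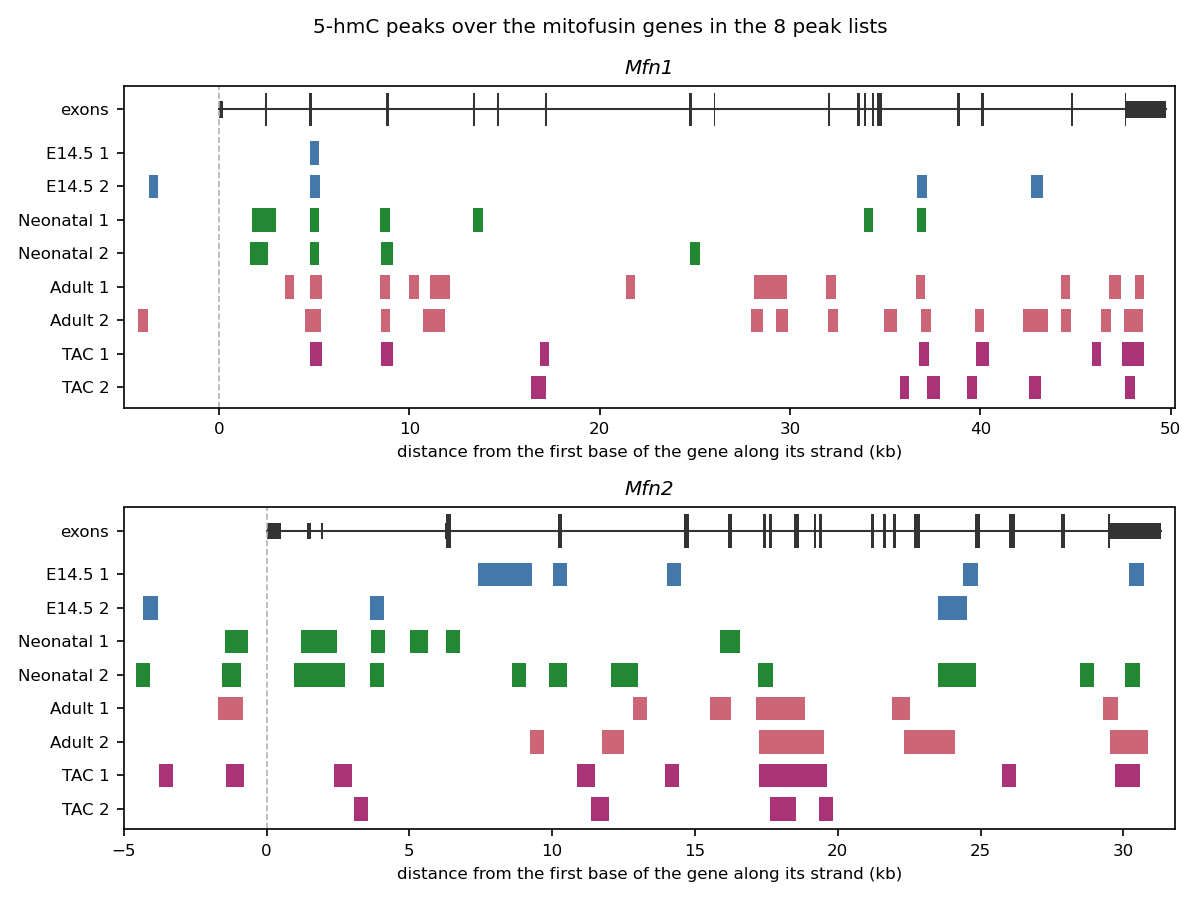
Places of 5-hmC peaks over Mfn1 and Mfn2 in each of the 8 lists, as distance in kb from the first base of the gene along its strand, with exons of all RefSeq transcripts on top (tall, coding; low, untranslated). The Mfn1 peak near 5 kb recurs in all lists but TAC 2, and the adult and TAC lists share a stretch of Mfn2 near 18 kb.

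Fission genes. None of the 3 had coverage that separated all points. Dnm1l (chr16:16312228-16359031, minus strand) had 0 and 2.90% (E14.5), 1.93 and 6.08% (neonatal), 0.967 and 1.87% (adult) and 1.58 and 1.46% (TAC). Both adult lists were below both neonatal lists, by less than a single peak at the nearest pair, and the call was lost when all lists were cut to the same number of peaks. Its peaks lay in the first intron in most lists, where 48 bp from 9648 to 9696 bp were shared by 5 lists, and the 5 kb upstream held none in any list. Fis1 (chr5:136953275-136966234, plus strand) had 0 and 9.57% (E14.5), 4.38 and 8.95% (neonatal), 2.79 and 12.7% (adult) and 2.79 and 4.41% (TAC). The replicates of E14.5 and of adult differed from each other by more than the means of any pair of points, and no pair of points separated. Peaks gathered at the 3′ end: 53 bp in the untranslated part of the last exon (12807 to 12860 bp) were in 5 lists.

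Mff (chr1:82724890-82752390, plus strand) had 3.62 and 1.54% (E14.5), 3.08% in each neonatal list, 3.98 and 3.47% (adult) and 9.67 and 0% (TAC). The adult lists were above the neonatal ones by 0.640 percentage points, less than the 1.54% of a single peak, and the sign turned without the upstream 5 kb (-0.433 points). The TAC replicates were the highest and the lowest of all 8 lists. The peak at 19072 to 19383 bp, in intron 7, was present in both E14.5 and both neonatal lists and in no adult or TAC list. Adult replicate 1 and TAC replicate 1 instead held a peak just before the first base, over the RefSeq promoter windows (250 bp before to 50 bp after a start). In the exact permutation test of the 4 points p was 0.533 for Dnm1l, 0.867 for Fis1 and 0.933 for Mff, each 1 after adjustment over all genes.

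Quality genes. Mul1 (chr4:138434672-138442265, plus strand, 4 exons) was free of listed peaks in both E14.5 lists and in neonatal replicate 2, and was covered to 15.0% in neonatal replicate 1. It had 42.6 and 47.6% in adult CMCs and 34.6 and 25.2% after TAC. The step it was selected on, from 7.48 ± 10.6 to 45.1 ± 3.55% (SD, n = 2), was 37.7 percentage points, rank 4 by size of the rise among 16180 genes of at least 5 kb. Both TAC lists were below both adult lists and above both neonatal lists. TAC was 15.2 percentage points below adult, and 10.6 points below without TAC replicate 2 (-15.2 and -10.6 as coded, TAC minus adult). This step shares the adult lists that chose the gene.

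The coverage was within the gene. Counted over the transcribed 7594 bp alone it was 24.8% in neonatal replicate 1, 64.1 and 79.0% in adult CMCs and 57.4 and 41.8% after TAC. Of the 5 kb upstream, 10.02% was covered in adult replicate 1 and none in the other 7 lists. In adult replicate 2 a single peak of 6001 bp ran from 1290 to 7291 bp, and 0.133% of the peaks of that list were at least as wide. Adult replicate 1 had separate peaks at 604 to 3520, 4072 to 5014 and 5725 to 6683 bp. TAC replicate 1 had its longest peak from 1323 to 4894 bp and TAC replicate 2 from 4242 to 5806 bp. Because 1 long peak counts like 1 short peak, the number of peak centres per 10 kb did not separate adult from neonatal Mul1 (a difference of 0.794 per 10 kb).

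The 5 lists that marked Mul1 shared 43 bp in intron 1 and 285 bp at the 5′ part of exon 4 (chr4:138438914-138439198, plus strand), with 248 coding bases and 11 CpG. The 250 bases before the start (chr4:138434422-138434671, plus strand) hold 16 CpG and had no peak in any list. They are set side by side to show CpG-rich sequence on both sides of the start. The downstream stretch was picked for lying under the most lists, so the contrast in marking is a description only. Adult replicate 1 had a peak from -768 to -267 bp, just short of the 250 bases.
Mul1 exon 4, 5 lists: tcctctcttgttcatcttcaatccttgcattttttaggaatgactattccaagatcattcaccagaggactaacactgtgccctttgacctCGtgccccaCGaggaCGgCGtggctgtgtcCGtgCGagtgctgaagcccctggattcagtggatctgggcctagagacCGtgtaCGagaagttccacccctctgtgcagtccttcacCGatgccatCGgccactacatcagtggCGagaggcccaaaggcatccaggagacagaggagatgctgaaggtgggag
Mul1 before the start, 0 lists: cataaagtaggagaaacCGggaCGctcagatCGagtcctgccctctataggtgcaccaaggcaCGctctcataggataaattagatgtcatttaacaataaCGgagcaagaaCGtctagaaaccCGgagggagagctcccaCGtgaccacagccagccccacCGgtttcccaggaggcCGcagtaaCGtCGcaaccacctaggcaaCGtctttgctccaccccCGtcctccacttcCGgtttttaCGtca

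CpG was about as dense under Mul1 peaks (2.03 per 100 bp) as outside them (2.14). Pink1 (chr4:138313409-138326296, minus strand) lies 108375 bp from Mul1 on the same chromosome. It had 6.32 and 10.02% (E14.5), 7.59 and 23.9% (neonatal), 22.3 and 31.5% (adult) and 20.5 and 10.7% (TAC). Adult was above E14.5 in both replicates, adult and neonatal overlapped, and both TAC lists were below both adult lists. The exact permutation test of the 4 points gave p = 0.238 for Pink1 (adjusted over all genes, 0.839). Between TAC and adult the nearest replicates were 20.5 and 22.3%, less than a 501-bp peak (2.80%) apart, and the call was lost over the gene body alone. The places differed as well. Both E14.5 lists shared 11324 to 11954 bp near the 3′ end, both adult lists shared 2852 bp from 3793 to 6645 bp around exons 2 and 3, and the TAC lists shared 611 bp.

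2 stretches of Pink1 are shown. The first, in intron 2 (chr4:138320503-138320741, minus strand), was in both neonatal lists, both adult lists and TAC replicate 1, and in no E14.5 list. The second, in intron 7 (chr4:138314343-138314566, minus strand), was in 6 lists including both of E14.5.
Pink1 intron 2, 5 lists: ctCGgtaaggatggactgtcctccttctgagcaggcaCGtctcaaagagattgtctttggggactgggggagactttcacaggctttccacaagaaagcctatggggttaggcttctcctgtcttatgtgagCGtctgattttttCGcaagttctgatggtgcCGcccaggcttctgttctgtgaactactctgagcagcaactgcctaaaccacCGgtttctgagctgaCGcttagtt
Pink1 intron 7, 6 lists: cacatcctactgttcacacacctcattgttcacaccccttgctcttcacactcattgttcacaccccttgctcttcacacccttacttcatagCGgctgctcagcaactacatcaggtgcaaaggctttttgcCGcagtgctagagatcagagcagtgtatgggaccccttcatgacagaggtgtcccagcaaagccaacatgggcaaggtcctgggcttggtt

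The first holds 7 CpG and the second 2. Of the genes between the pair, Cda had 2.91 to 12.6% over the 8 lists, its adult replicates being the lowest and the highest, and Fam43b had no peak in any. Camk2n1, which lies 12882 bp beyond Mul1, had 5.02 and 10.04% in neonatal and 12.9 and 22.4% in adult CMCs.

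**Figure D3:**
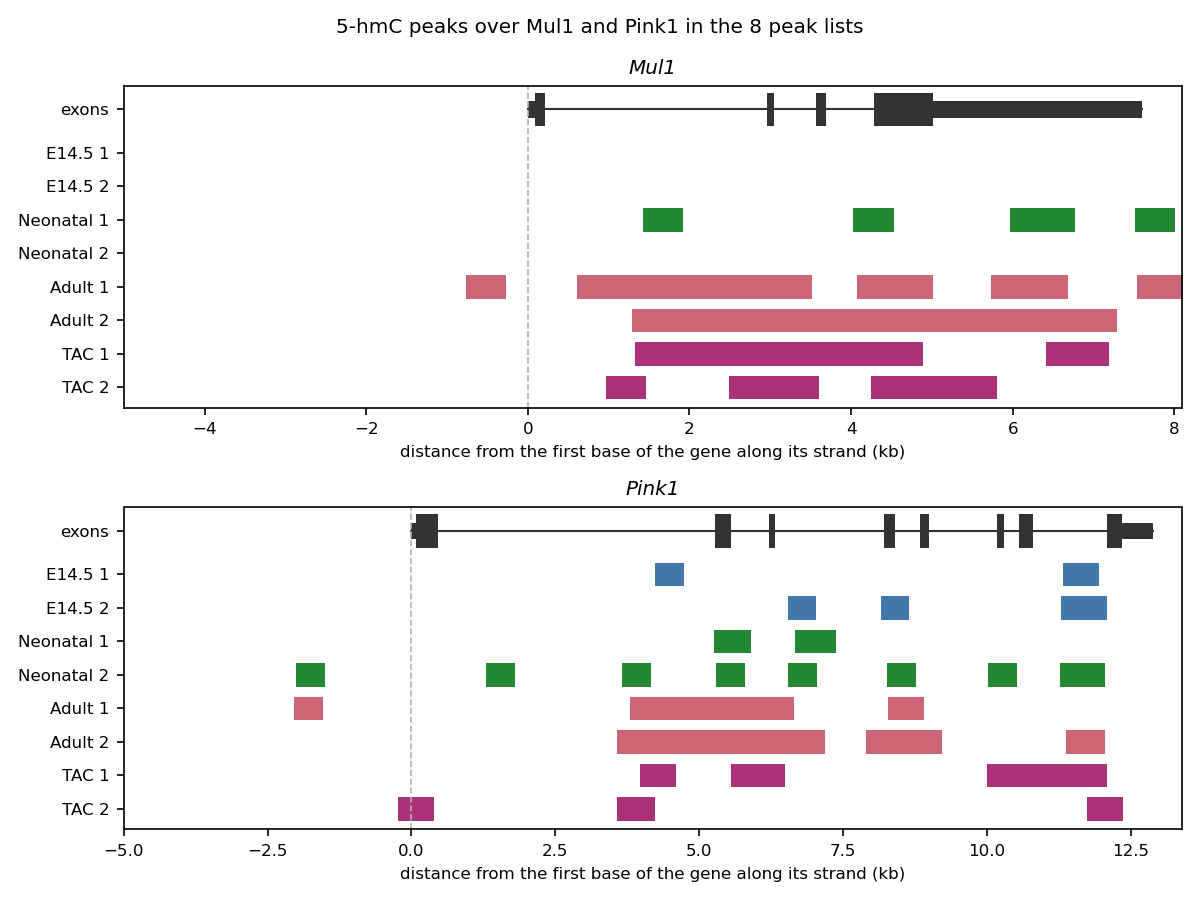
Places of 5-hmC peaks over Mul1 and Pink1 in each of the 8 lists, as distance in kb from the first base of the gene along its strand, with exons on top (tall, coding; low, untranslated). The E14.5 lists and neonatal 2 hold no peak over Mul1, adult 2 holds a single peak of 6001 bp, and the peaks of Pink1 are widest in the adult lists.

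The inner membrane proteases differed from each other. Oma1 (chr4:103313846-103366428, plus strand) had 3.14 and 0.0573% (E14.5), 0.870 and 1.96% (neonatal), 4.27 and 5.30% (adult) and 6.17 and 1.99% (TAC). Both adult lists were above both neonatal lists, by 3.37 percentage points in the mean, and the TAC lists lay on either side of the adult ones. The call between neonatal and adult was lost when peaks that no other list overlapped were left out. Its peaks were scattered, and 2 stretches were in 3 lists. One was 358 bp in intron 7, in E14.5 replicate 1, neonatal replicate 1 and TAC replicate 1. The other was 382 bp in intron 6, shared by both adult lists and TAC replicate 1, whose central 300 bases (chr4:103330297-103330596, plus strand) hold 10 CpG. Yme1l1 (chr2:23156505-23199260, plus strand) had 2.10 and 1.05% in neonatal CMCs and no peak in the other 6 lists. These were 3 peaks of 501 bp in introns, of which 1 pair overlapped, and the central 300 bases of that overlap (chr2:23179002-23179301, plus strand) hold no CpG.
Oma1 intron 6, 3 lists: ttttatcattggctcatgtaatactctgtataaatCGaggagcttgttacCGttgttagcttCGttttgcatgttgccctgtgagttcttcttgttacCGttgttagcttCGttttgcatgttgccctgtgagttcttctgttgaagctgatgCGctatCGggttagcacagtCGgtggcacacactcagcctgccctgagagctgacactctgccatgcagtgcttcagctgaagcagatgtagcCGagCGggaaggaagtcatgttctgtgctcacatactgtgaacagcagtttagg
Yme1l1 intron 7, 2 lists: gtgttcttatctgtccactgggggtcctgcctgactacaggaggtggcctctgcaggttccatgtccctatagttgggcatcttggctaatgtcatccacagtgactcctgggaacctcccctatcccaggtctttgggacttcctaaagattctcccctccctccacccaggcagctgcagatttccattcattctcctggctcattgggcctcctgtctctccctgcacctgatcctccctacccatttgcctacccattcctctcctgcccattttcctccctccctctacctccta

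The exact permutation test of the 4 points gave p = 0.362 for Oma1 and 0.143 for Yme1l1 (adjusted over all genes, 0.915 and 0.729). Thus of the 9 genes other than Mul1, 1 had an unadjusted p of at most 0.05, against 6.36% of all genes. Over the 6 lists before TAC, Mfn1 had p = 0.0667 in a test of 3 points by the same exact permutation. The others of the 9 had p of 0.2 (Yme1l1) or more in that exact permutation test. With 6 lists in 3 pairs it can give no p below 0.0667. No gene could therefore reach 0.05, and this test cannot decide whether coverage differed before TAC. The exact permutation test of the 4 points can give no p below 0.00952. In it 0 of 21000 genes passed after adjustment (smallest exact permutation p adjusted, 0.698), and 1335 had an unadjusted p of at most 0.05. Comparing 2 lists with 2 lists allows no p below 0.333 in an exact permutation test. Single steps are therefore described by whether the replicates overlap, beside the share of all genes with the same result.

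From E14.5 to neonatal, 4 of 10 genes (Mfn1, Mfn2, Opa1 and Yme1l1) were higher in both replicates, against 21.4% of all genes, and 0 were lower, against 5.64%. From neonatal to adult, 4 were higher (Mul1, Mfn1, Mff and Oma1), against 13.2%. Without Mul1, which was chosen for this step, this was 3 of 9. Dnm1l and Yme1l1 were lower, against 18% of all genes. From adult to TAC, 0 were higher, against 5.24%, and 3 were lower (Mul1, Mfn1 and Pink1), against 19.7%. Without Mul1, which was chosen with the adult lists, 2 of 9 (22.2%) were lower, close to the share of all genes. Mul1, Mfn1 and Pink1 were also below both adult lists in TAC replicate 1 taken alone. Without TAC replicate 2, however, Mfn2, Mff and Oma1 lay above the adult lists. Against both adult lists, TAC replicate 1 alone was lower in 26.3% of all genes and higher in 17.1%. The median differences of the 10 genes for the 3 steps were 2.22, 0.867 and -1.99 percentage points, and those of all genes 0.154, 0 and -0.213. Without Mul1 the last 2 were 0.640 and -0.705. The adult lists enter both of the later steps, so a high adult value counts in each.

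How the lists are scaled moved the background. After division by the share of the genome each list covers, 16.3% of all genes were higher and 12.9% lower from E14.5 to neonatal, 23.5% higher and 13.3% lower from neonatal to adult, and 10.7% higher and 13.6% lower from adult to TAC. The counts for the 10 genes were then 3 higher and 0 lower, 5 and 2, and 1 and 3. The 3 genes lower in TAC were again Mul1, Mfn1 and Pink1, and Dnm1l was the 1 higher.

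**Figure D4:**
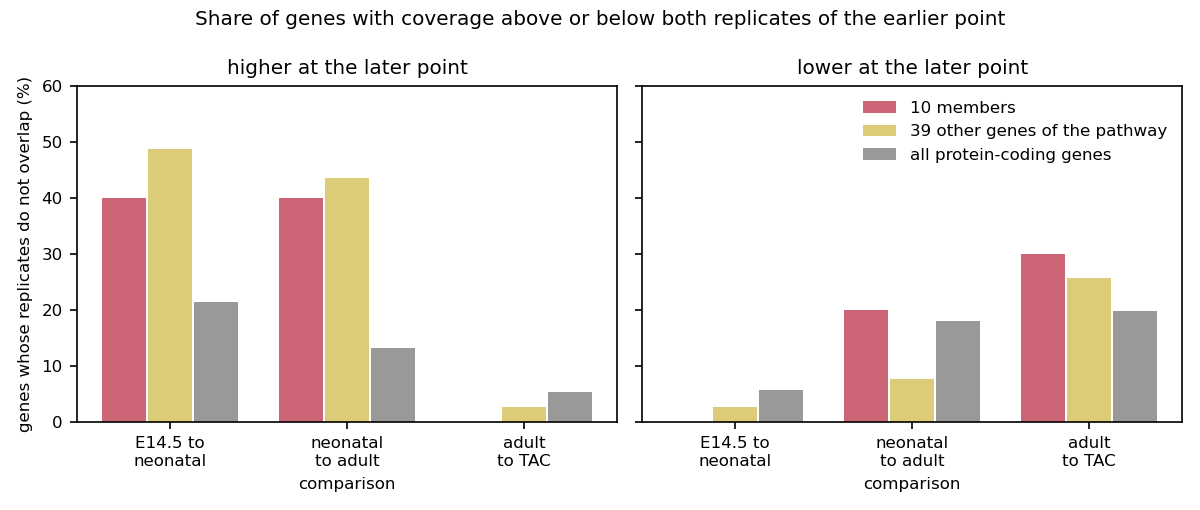
Percentage of genes whose coverage was above (left) or below (right) both replicates of the earlier point, for each step on the horizontal axis; bars start at 0 and stand for the 10 genes, the 39 other genes of the pathway and all protein-coding genes. From neonatal to adult the bars for higher genes are at 40% for the 10 genes, Mul1 included, 43.6% for the pathway and 13.2% for all genes.

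Another 39 genes of mitochondrial dynamics, mitophagy and protein quality control were read in the same way, and all were found. This list too was written with earlier results of these data known. From E14.5 to neonatal 19 (48.7%, against 21.4% of all genes) were higher and 1 (2.56%, against 5.64%) lower. The widest differences were for Trak1, an adaptor of mitochondrial transport, with 23.3 and 19.3% before and 37.5 and 49.2% after, and Inf2, a formin active at fission sites, with 20.6 and 15.0% before and 29.8 and 34.7% after. The gene that was lower was Bnip3, a mitophagy receptor, with 4.23 and 2.12% before and no peak after. From neonatal to adult 17 (43.6%, against 13.2%) were higher and 3 (7.69%, against 18%) lower. Pld6, a phospholipase of the outer membrane, had no peak in neonatal CMCs and 19.4 and 38.996% in adult CMCs. Sqstm1, the autophagy adaptor p62, had 15.4 and 17.5% in neonatal and 20.9 and 41.9% in adult CMCs. Inf2 and Gdap1, an outer membrane protein linked to fission, were lower, the latter with 5.54 and 4.19% in neonatal and 0 and 2.10% in adult CMCs.

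From adult to TAC 10 of the 39 (25.6%, against 19.7%) were lower and 1 (2.56%, against 5.24%) higher. Without TAC replicate 2 these were 13 (33.3%, against 26.3% of all genes) and 3 (7.69%, against 17.1%). Mtfp1, an inner membrane protein that promotes fission, had 21.3 and 22.8% in adult CMCs and 8.80 and 8.07% after TAC. Optn, an autophagy receptor, had 10.3 and 14.54% in adult CMCs and 7.07 and 2.33% after TAC. Tax1bp1, another such receptor, had no peak in adult CMCs and 0.863% in each TAC list. The median coverage of the 39 genes was 3.06, 4.87, 10.04 and 6.03% from E14.5 to TAC, that of the 9 genes other than Mul1 2.41, 4.01, 4.79 and 4.08%, and that of all genes 3.20, 3.95, 3.62 and 3.05%. In TAC replicate 1 alone these medians were 8.05, 6.17 and 2.92%. Of the CMC markers 4 of 8 were higher from E14.5 to neonatal, against 21.4% of all genes. From neonatal to adult 7 of 8 were lower, against 18%, Myh6 having 33.6 and 47.0% in neonatal and 1.69 and 4.70% in adult CMCs. Of fibroblast and endothelial markers together 0 of 13 were higher (against 13.2% of all genes) and 4 lower (against 18%) at that step. From E14.5 to neonatal 2 of 6 endothelial markers (Tie1 and Vwf) were lower, against 5.64% of all genes. From adult to TAC 4 of 6 (Pecam1, Cdh5, Kdr and Tie1) were lower, against 19.7%, in the same direction as Mul1, Mfn1 and Pink1. Of the 8 CMC markers 1 was higher (Myh6) and 1 lower (Actn2) at that step. Of the 7 fibroblast markers 0 were higher and 1 lower (Ddr2), against 5.24 and 19.7% of all genes. In TAC replicate 1 alone all 6 endothelial markers were below both adult lists, against 26.3% of all genes. There 2 CMC markers were higher and 2 lower, and 1 fibroblast marker was higher and 1 lower, against 17.1 and 26.3%. The part of these markers in the coverage of mitochondrial genes was not tested.

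Coverage of the 10 genes was higher in exons than in introns in each list from neonatal on. Over the 35371 bp of exons, coverage was 2.65 and 2.17% (E14.5), 9.12 and 8.36% (neonatal), 12.5 and 25.9% (adult) and 17.2 and 10.8% (TAC). Without Mul1, which was selected on its rise from neonatal to adult, the exons had 6.62 and 9.35% in neonatal and 8.16 and 18.8% in adult CMCs. These 2 points then overlapped. Over the 324052 bp of introns coverage was 2.34 and 2.61%, 4.26 and 5.75%, 6.54 and 8.72%, and 6.49 and 3.496%. Without Mul1 the introns had 4.07 and 5.82% in neonatal and 5.67 and 7.96% in adult CMCs, which overlapped as well. For all protein-coding genes the exons had 8.22 and 11.5% and the introns 5.20 and 6.49% in adult CMCs. Base pairs under peaks of both replicates were found in 4, 7, 6 and 4 of the 10 genes from E14.5 to TAC, the last with the displaced peaks of TAC replicate 2. Their summed length was 1628, 6933, 14999 and 4779 bp. Mul1, selected on its rise from neonatal to adult, gave 0, 0, 4130 and 1903 bp of these. It is also among the genes counted for adult and TAC. The share of all genes with such shared base pairs was not computed, so these counts have no background beside them. No base pair of these genes was common to all 8 lists.

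Among the genes most like Mul1 over the 8 lists, by Pearson r among 15378 genes of at least 5 kb whose coverage varied, were Bnip3l (r = 0.992), Prrx1 (0.986), Itch (0.980) and Iscu (0.974). Bnip3l, a mitophagy receptor, is among the 39 genes, with 1.75% in both E14.5 lists, 5.42 and 2.22% (neonatal), 9.79 and 10.3% (adult) and 8.05 and 5.76% (TAC). Iscu, the scaffold of iron-sulphur cluster assembly in mitochondria, had none at E14.5 and 18.6 and 18.2% in adult CMCs. Prrx1 encodes a homeobox factor and Itch a ubiquitin ligase. Among the 10 genes, r with Mul1 was 0.916 for Mfn1 (rank 64), 0.744 for Oma1 and 0.632 for Pink1, and -0.382 for Dnm1l and -0.310 for Yme1l1. Without TAC replicate 2 these were 0.935, 0.778 and 0.683, and -0.374 and -0.299. All these values share the same lists, with their depth and scaling. They also include the neonatal and adult lists on which Mul1 was selected, so a rise at that step by itself raises r.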

How the data were processed

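5-hmC was profiled by hydroxymethylated DNA immunoprecipitation and sequencing. Of 19 samples, 8 peak lists (2 per point) were analysed; 9 input and 2 sh-control libraries were not used here. Per the study's methods, reads were aligned with BWA 0.7.4-r385 (a version from the submitters' processing notes) to mm10, Picard duplicates and reads with mapping quality under 10 were removed, and HOMER called peaks in each replicate against input. The file headers show that neonatal replicate 2, adult replicate 2 and both TAC lists scaled the pulldown to the control, and the other 4 lists the control to the pulldown. The authors deposited the place of each peak with a score column that is 1 throughout, so no peak height, count or threshold could be used.

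Peaks were intersected with curated RefSeq spans (GRCm38.p6, the same coordinates as mm10) of 21000 protein-coding genes, each with 5 kb upstream. A step was called when both replicates of a point lay beyond both of the other. The 4 points were compared by a one-sided exact permutation test with Benjamini-Hochberg adjustment over all genes, tested on simulated data. Python 3.11.15, numpy 2.4.6, scipy 1.17.1 and matplotlib 3.10.9 were used. Other windows, scalings, peak numbers, peak widths, replicates left out and a replicate block were tried. All 10 members are named; of the 39 other genes, at most the 2 with the widest separated difference per step and direction; and the 5 genes most like Mul1, of which 1 is not reported here. The members and the gene lists were chosen with earlier results of these data known. Labels do not tie replicates to animals, so p-values measure only the spread between these samples. Replicate differences from the same numbers correlated at -0.181 to 0.180 over 6 pairs of points, 3 of them over 0.1, so the numbers were not taken to pair samples. Sequences are from RefSeq's GRCm38.p6.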

Additional observations from a re-analysis of the deposited data

How the results depend on the processing

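The call that Mfn1 was higher in adult than neonatal and lower in TAC than adult CMCs was kept under all 8 alternatives to the processing. Leaving out a replicate cannot undo a call of this kind, so it gives no check of the call. Calls kept under fewer alternatives were those of Mul1 for TAC (7 of 8), Oma1 (7), Yme1l1 (7 at each step), Pink1 for TAC (4), Dnm1l (5) and Mff (3). From E14.5 to neonatal they were those of Mfn1 (6), Mfn2 (6) and Opa1 (5). Mff turned to -0.433 percentage points without the upstream 5 kb and to -0.131 with only peaks that overlap another list. Of the counts of genes, higher in adult than neonatal was 2 by peak centres per 10 kb and 3 to 5 in the other settings that kept all replicates, lower in adult was 1 with equal numbers of peaks and 1 with only overlapping peaks, and 0 with the first 50% of the listed peaks, a setting chosen after seeing the data. Higher in TAC was 1 relative to the genome covered, and lower in TAC was 1 by peak centres. The rise of Mul1 was 59.2 points over the gene alone, 27.5 with 5 kb on both sides and 0.794 peak centres per 10 kb, where peak length does not enter. With at least 50% reciprocal overlap 0 members kept a common region in TAC. The causes of these changes were not tested.

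Leaving out each replicate in turn gave 5 to 7 genes higher (7 without E14.5 replicate 2) in neonatal than E14.5, against 31.8 to 40.3% of all genes. It gave 0 to 2 lower there, against 10.1 to 18.2%. In adult than neonatal 4 to 6 were higher (18.3 to 30.1% of all genes) and 2 to 3 lower (23.8 to 34.8%). In TAC than adult 0 to 3 were higher (9.42 to 17.1%) and 3 to 6 lower (26.3 to 40.4%). A call on fewer lists is easier to meet, and each of these shares of all genes is above that with all lists. The rise of Mul1 was 30.2 to 45.1 points. The lower count for TAC was 6 without adult replicate 1 (40.4% of all genes) and 6 without TAC replicate 1 (36.9%). The higher count was 2 without adult replicate 2 (15%) and 3 without TAC replicate 2 (17.1%). Lower in neonatal was 1 without E14.5 replicate 1 (16.5%) and 2 without E14.5 replicate 2 (16.4%). With the replicate number as a block (replicate block: both same-numbered pairs moving one way) the counts higher and lower were 6 and 0, 5 and 2, and 0 and 3. The shares of all genes were then 28.8 and 10.4%, 19.0 and 24.2%, and 8.19 and 24.9%. No gene passed over the 4 points with this block. The smallest p its exact permutation test can give is 0.0417, which Mfn1 had. After adjustment over all genes a pass was practically out of reach, so this test decides nothing. Every call made on all lists meets the block rule, so the rule could only add calls. It added Dnm1l at the first step and Pink1 at the first and second. Depth is unknown from the lists, which limits every statement that a peak is not listed.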
